A study of Mus musculus with 17 samples.

Results

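Wounded skin of irradiated C57/BL6j mice was compared between day 6 and day 3 after injury by RNA sequencing. The comparison used 5 of the 17 libraries of the series: 2 of irradiated skin at day 6, numbered replicates 1 and 3 in the labels, and 3 of irradiated skin at day 3, numbered 1, 2 and 3. Both groups had received ionizing radiation, and neither its dose and timing nor the kind of wound was known for this work. The other libraries came from irradiated skin at day 9 (3 libraries) and from control skin of the same genotype at day 3 (2), day 6 (2), day 9 (3) and day 0 (2). Every library was made from total RNA of whole skin tissue with the Smart-Seq2 method, so a lower level can come from fewer cells of a type or from less RNA per cell, and these cannot be told apart. The labels do not say that the libraries came from separate animals, so p-values measure the spread between libraries. The fit pooled this spread over the groups of all 17 libraries, so it is not that of the 5 compared alone.

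The values are FPKM (fragments scaled to gene length and library total). Of 34140 genes in the table, 13901 had an FPKM of at least 1 in at least 2 of the 5 libraries and were tested. A gene is said to have risen or fallen where limma's adjusted p (Benjamini-Hochberg over the 13901 genes) was under 0.05, and every fold change is a difference of mean log2(FPKM + 1), day 6 minus day 3. The 17 libraries held 25440773 to 30797409 assigned fragments; the irradiated day-6 libraries held 28349345 and 27727375, and the irradiated day-3 libraries held 29278323 to 30797409.

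When the skin is breached, dying cells, microbes and damaged DNA are sensed by pattern-recognition receptors of keratinocytes and immune cells. One branch of this sensing leads to type I interferons, which act through a receptor and a protein complex that holds IRF9 on the interferon-stimulated response element of many genes. Another branch leads through NF-kB to cytokines and chemokines that recruit neutrophils and monocytes, and later the epidermis closes, vessels sprout and matrix is laid down.

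Genes known to respond to interferon were among those with the largest falls between the days, so the start regions of 4 genes that fell and hold the core of the interferon-stimulated response element are shown. The windows run from 250 bases before to 50 bases after the annotated start, 5′ to 3′ on the strand of the gene, from RefSeq on GRCm38.p6. Capitals mark matches to the core of the element, searched as GAAANNGAA on both strands. In Eif2ak2, which codes for the RNA-activated kinase PKR, the window is chr17:78882523-78882822 on the minus strand and the first match lies 18 bases downstream of the start. In Trim21, an antibody-binding ubiquitin ligase, the window is chr7:102565433-102565732 on the minus strand and the first match lies 13 bases downstream. In Slfn5, a Schlafen-family nuclear protein, the window is chr11:82951852-82952151 on the plus strand and both matches lie upstream, the first at -155. In Ddx58, the viral RNA sensor RIG-I, the window is chr4:40239776-40240075 on the minus strand with 1 match 3 bases downstream. The last window belongs to Klk14, the gene with the highest rise, at chr7:43690168-43690467 on the plus strand, which holds no match.
Eif2ak2: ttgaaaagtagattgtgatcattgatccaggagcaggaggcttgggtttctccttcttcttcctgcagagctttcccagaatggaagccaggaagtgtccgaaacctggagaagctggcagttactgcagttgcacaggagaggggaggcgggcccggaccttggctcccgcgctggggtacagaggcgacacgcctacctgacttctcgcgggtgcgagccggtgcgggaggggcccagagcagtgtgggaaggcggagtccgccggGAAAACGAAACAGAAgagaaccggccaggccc
Trim21: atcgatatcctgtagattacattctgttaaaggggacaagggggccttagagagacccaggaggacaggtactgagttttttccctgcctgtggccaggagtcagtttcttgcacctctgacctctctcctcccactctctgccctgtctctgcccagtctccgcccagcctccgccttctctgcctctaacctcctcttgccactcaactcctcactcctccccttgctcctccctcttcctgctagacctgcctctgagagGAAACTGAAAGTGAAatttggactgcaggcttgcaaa
Slfn5: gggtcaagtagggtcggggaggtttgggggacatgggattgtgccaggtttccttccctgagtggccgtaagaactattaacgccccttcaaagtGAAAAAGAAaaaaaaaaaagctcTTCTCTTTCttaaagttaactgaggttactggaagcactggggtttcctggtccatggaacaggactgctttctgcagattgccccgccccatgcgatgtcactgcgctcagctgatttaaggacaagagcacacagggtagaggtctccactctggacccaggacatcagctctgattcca
Ddx58: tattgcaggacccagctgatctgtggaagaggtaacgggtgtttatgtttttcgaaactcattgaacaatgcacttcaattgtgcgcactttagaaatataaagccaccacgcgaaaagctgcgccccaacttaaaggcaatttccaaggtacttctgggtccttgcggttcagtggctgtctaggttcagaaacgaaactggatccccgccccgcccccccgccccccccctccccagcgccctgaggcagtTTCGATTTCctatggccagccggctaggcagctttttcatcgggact
Klk14: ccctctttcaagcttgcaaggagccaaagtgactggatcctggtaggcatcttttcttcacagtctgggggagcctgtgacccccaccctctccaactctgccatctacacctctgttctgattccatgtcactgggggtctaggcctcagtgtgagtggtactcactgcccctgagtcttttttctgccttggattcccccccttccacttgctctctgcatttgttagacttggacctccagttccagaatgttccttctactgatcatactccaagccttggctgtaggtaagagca

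Of the genes that fell, 48 had a RefSeq window, and 11 of these genes (22.9%) held the core in at least 1 window. Among the genes that rose, 12 had a window and 0 held it. Of all genes tested with a window, 9.21% held it, as did 8.56% of all 32851 windows of the table. In the list of 30 interferon-induced genes, 16 of the 23 genes with a window (69.6%) held the core. The core overlapped another searched motif, GGANNTTCC, in 1 of the 26 windows of genes that fell or were on the list and held it. Other motifs searched were also more common on the list than over all genes tested: the AP-1 motif TGANTCA was held by 30.4% of list genes, against 7.14% of all, the NF-kB motif GGANNTTCC by 17.4%, against 5.68%, and the TATA box TATAAA by 21.7%, against 9.73%. GGANNTTCC was held by 10.4% of the genes that fell and 16.7% of those that rose. A match is a string of letters and no evidence that a factor was bound. Of the list genes that fell, Ddx58 held the interferon core in its window, while the windows of Ifit2, Cmpk2 and Oasl1 held no match. Mx1 had no window. The windows of Helz2, Znfx1, Tlr3, Daxx and Pml, which also fell, held no match either.

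The day-6 libraries stood apart from each other, so both are given for each gene whose change is described. Between replicate 1 and replicate 3 of irradiated day 6, 1110 of 13901 genes differed by at least 1 on the log2 scale, 514 higher and 596 lower in replicate 1; between pairs of irradiated day-3 libraries, 92 to 155 genes did. Pearson's r across the tested genes, which are not independent replicates, was 0.939 between the day-6 libraries, 0.984 to 0.991 between day-3 libraries, and 0.946 to 0.971 between a day-6 and a day-3 library. The 16 keratinocyte markers of the basal and suprabasal layers summed to 6606 FPKM in replicate 1 and 20459 FPKM in replicate 3 of day 6, against 12573 to 17119 FPKM at day 3. The 18 neutrophil markers summed to 10736 FPKM and 4811 FPKM in the same 2 day-6 libraries, against 2152 to 3340.3 FPKM at day 3. Abundant genes weigh most in such a sum: over the 16 neutrophil markers tested, the median log2 difference from day 3 was 0.77 in replicate 1 and -0.94 in replicate 3. Replicate 1 thus had the lowest keratinocyte and the highest neutrophil marker level of the 5 libraries, and the part of these differences in the results was not tested. Basal keratin Krt14, a marker of epidermis, was abundant in all 5 libraries, with 3559 and 12080 FPKM at day 6 and 10181, 7247 and 9263 FPKM at day 3. The share of summed FPKM on the mitochondrial genome was 11.2% and 11.7% at day 6, against 8.69% to 9.28% at day 3.

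Between irradiated day 6 and day 3, 96 of 13901 genes passed (0.691%): 23 rose (0.165%) and 73 fell (0.525%). Of the genes that fell, 37 did so by at least 1 on the log2 scale, as did 9 of those that rose. In all 96 genes both day-6 libraries lay on the same side of all 3 day-3 libraries. Over all genes tested, this was true of 12.9% above and 19.4% below. The 96 were chosen by a test on these same values, so their separation is no further support. Replicate 1 was further from the day-3 mean than replicate 3 in 75 of the 96 genes. Over all genes tested, Pearson's r with day 3 was 0.946 to 0.956 for replicate 1 and 0.963 to 0.971 for replicate 3. The share over all genes was not counted, so this count does not set the 96 apart. With FPKM rescaled to nuclear genes, 12 rose and 103 fell, so the share that rose was 10.4% in place of 24.0%. The calls depended on the libraries in the fit: 2 genes (Klk14 and Fetub) passed without day-6 replicate 1, and 402 passed without day-6 replicate 3, of which 194 rose. Every other gene named here as having risen or fallen lost its call without day-6 replicate 1. Without day-3 replicate 1, 2 or 3, the numbers were 4, 12 and 41. When only these 5 libraries were fitted, limma called 0 genes, with 1793 at an unadjusted p under 0.05 against 1891 in the fit of all 17 libraries.

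**Figure D1:**
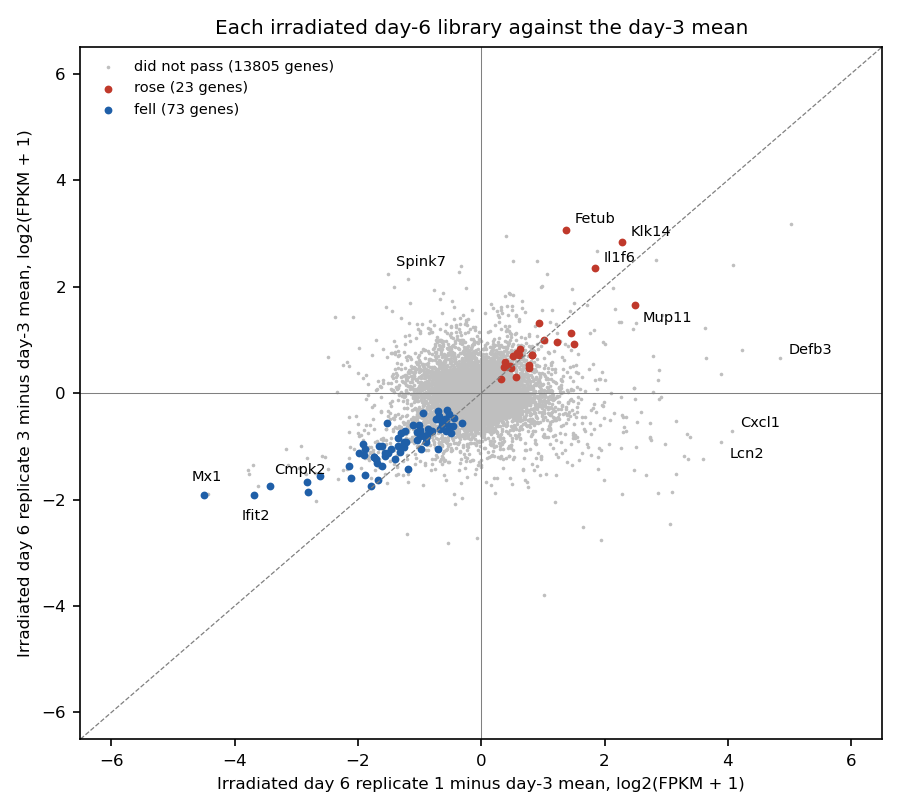
Difference of each irradiated day-6 library from the irradiated day-3 mean for the 13901 genes tested, replicate 1 on the horizontal and replicate 3 on the vertical axis, both in log2(FPKM + 1). The 73 genes that fell lie at the lower left and the 23 that rose at the upper right, with most falls larger in replicate 1; Cxcl1 and Lcn2, which did not pass, are high in replicate 1 and low in replicate 3.

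Of the 30 genes on the list of interferon-induced genes, 6 fell (Mx1, Ifit2, Cmpk2, Oasl1, Mx2 and Ddx58) and 0 rose, against a background of 0.525% of genes falling. In 28 of the 30, both day-6 libraries were lower than every day-3 library (19.4% of all genes). The median difference of the list was -1.44, against -0.02 over all genes tested, and it was -1.95 in day-6 replicate 1 and -1.01 in replicate 3. All 30 had a negative difference. The number that fell was 0 without day-6 replicate 1 and 16 without replicate 3, and it was 0, 0 and 2 without day-3 replicates 1, 2 and 3. It was 0 with a pseudocount of 0.1, with array quality weights and with only the 5 libraries or only the irradiated libraries fitted, 1 with the replicate number as a block or no filter on low values, 3 with limma-voom and 13 with a pseudocount of 5. The median stayed between -1.95 and -1.01 in these fits.

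Mx1, a gene of the Mx GTPase family, showed the largest fall. Its FPKM was 2.30 and 18.7 at day 6, against 87.0, 78.4 and 57.6 at day 3, and it fell by 3.20 (SE 0.62, limma adjusted p = 0.0444). The gap between the groups held in both day-6 libraries, and replicate 1 was the lower. Ifit2, which binds viral RNA and stops its translation, had 8.35 and 30.9 FPKM at day 6 and 147, 126 and 90.3 FPKM at day 3, a fall of 2.80 (log2 difference -2.80, SE 0.51, limma adjusted p = 0.0354). Cmpk2, a mitochondrial nucleotide kinase next to Rsad2 in the genome, had 3.12 and 12.2 FPKM at day 6, against 61.9, 42.5 and 31.2 FPKM at day 3 (log2 difference -2.59, SE 0.46, limma adjusted p = 0.0310). Oasl1, a member of the oligoadenylate synthetase family, had 6.38 and 15.5 FPKM at day 6 and 64.2, 54.2 and 39.3 FPKM at day 3 (log2 difference -2.25, SE 0.46, limma adjusted p = 0.0487). In each of these 3 genes replicate 3 lay between replicate 1 and the day-3 libraries, with no overlap of the groups. Among the alternative analyses, Mx1 passed in 8 of 18, Ifit2 in 9 of 19, Cmpk2 in 10 of 19, and Oasl1 and Ddx58 in 6 of 19 each.

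Several well-known members had similar values without passing. Rsad2, the antiviral enzyme viperin, had 3.48 and 25.1 FPKM at day 6, against 129, 98.1 and 69.3 FPKM at day 3 (log2 difference -3.16, limma adjusted p = 0.0515). Ifit1, a sensor of RNA lacking a methylated cap, had 10.2 and 52.4 FPKM at day 6, against 174, 170 and 118 FPKM at day 3 (log2 difference -2.64, limma adjusted p = 0.0685). Isg15, a ubiquitin-like modifier, had 40.4 and 179 FPKM at day 6 and 481, 412 and 260 FPKM at day 3 (log2 difference -2.11, limma adjusted p = 0.190). Their groups did not overlap, but the gap between replicates 1 and 3 was wide in each. The transcription factors Irf7, Stat2 and Irf9 differed less, with log2 differences of -1.29 for Irf7 (-2.004 in replicate 1 and -0.58 in replicate 3), -1.29 for Stat2 (-1.69 and -0.90) and -0.63 for Irf9 (-0.79 and -0.46), and none of these passed. Cxcl10, an interferon-induced chemokine that attracts T cells, had 15.99 and 25.7 FPKM at day 6 and 151, 118 and 70.5 FPKM at day 3 (log2 difference -2.35, limma adjusted p = 0.170). Bst2 and Igtp were the 2 list members whose groups overlapped.

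**Figure D2:**
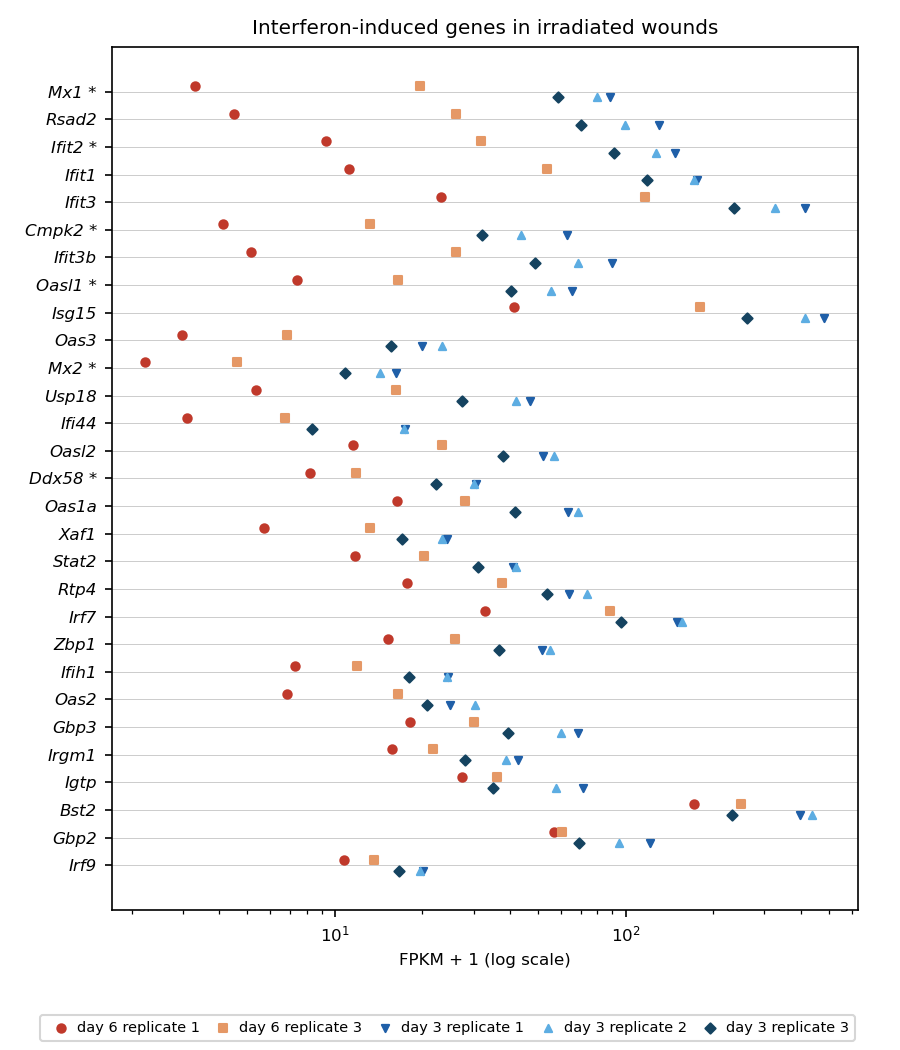
FPKM + 1 on a log axis of 29 of the 30 interferon-induced genes in the 5 irradiated libraries, day-6 libraries above day-3 libraries within each row, ordered by fold change, with an asterisk on the 6 genes that fell. Day-6 replicate 1 is the lowest point in nearly every row and day-6 replicate 3 comes next. The rows close up from Mx1 at the top (log2 difference -3.20) towards the smaller differences, such as Irf9 (-0.63).

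Of the genes that fell and were not on the list, Slfn5, Znfx1, Helz2, Tor3a and H2-T24 were among the largest falls, Trim21 had one of the lowest adjusted p of the interaction, and Eif2ak2, Tlr3, Daxx and Pml were chosen after their values were seen. Slfn5 had 18.5 and 24.3 FPKM at day 6, against 61.2, 68.9 and 56.5 FPKM at day 3 (log2 difference -1.50, SE 0.25, limma adjusted p = 0.0261). Znfx1, a helicase-like sensor of double-stranded RNA, had 8.25 and 11.7 FPKM at day 6, against 31.3, 33.1 and 23.9 FPKM at day 3 (log2 difference -1.47, limma adjusted p = 0.0261). Here the day-6 libraries were close to each other and both were well below day 3. Helz2 fell by 1.49 on the log2 scale (-1.62 in replicate 1 and -1.37 in replicate 3). Tor3a, which codes for an endoplasmic reticulum ATPase, fell by 1.76 (-2.15 and -1.38), and the class I-like gene H2-T24 fell by 1.71 (-1.88 and -1.55). Eif2ak2 had 8.23 and 10.9 FPKM at day 6, against 30.2, 27.3 and 21.6 FPKM at day 3, and fell by 1.37 (SE 0.21, limma adjusted p = 0.0192). It passed in 13 of 19 alternative analyses, as did Tlr3 and Trim21, while Pml passed in 6 of 19. Tlr3, the endosomal receptor for double-stranded RNA, had 3.77 and 4.32 FPKM at day 6, against 14.4, 11.2 and 9.62 FPKM at day 3, and fell by 1.32. Trim21 had 3.65 and 5.16 FPKM at day 6 and 13.6, 12.7 and 9.56 FPKM at day 3 and fell by 1.26. Daxx and Pml, partners in nuclear bodies that restrict viral genomes, fell by 1.34 (-1.55 in replicate 1 and -1.13 in replicate 3) and 1.17 (-1.34 and -1.0025).

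Il10, a cytokine that restrains inflammation, was the only gene of the 23 tested on the inflammatory cytokine list that fell (0.525% of all genes). It had 1.08 and 2.04 FPKM at day 6, against 6.87, 5.97 and 5.11 FPKM at day 3 (log2 difference -1.47, SE 0.27, limma adjusted p = 0.0364). The levels were low in all 5 libraries and the groups did not overlap. Tnf had 6.4996 and 4.91 FPKM at day 6, against 12.1, 8.25 and 14.1 FPKM at day 3, without passing (log2 difference -0.88, limma adjusted p = 0.523). Il1b had 93.6 and 93.1 FPKM at day 6, against 173, 103 and 233 FPKM at day 3 (log2 difference -0.78, limma adjusted p = 0.795). Both day-6 libraries lay below day 3 for 5 of the 23 cytokine genes (19.4% of all genes).

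The levels of these genes at the other times are given as a description. Mx1 had 19.6, 9.05 and 14.8 FPKM in irradiated skin at day 9, so that day-6 replicate 3 was near the day-9 libraries and replicate 1 was below them. In control skin, Mx1 had 3.99 and 2.54 FPKM at day 6 and 6.53 and 2.15 FPKM at day 3. Eif2ak2 had 16.8, 10.8 and 13.5 FPKM in irradiated skin at day 9, and in control skin 7.47 and 7.31 FPKM at day 6 and 8.32 and 7.21 FPKM at day 3. At day 6 the irradiated libraries of Eif2ak2, with 8.23 and 10.9 FPKM, lay above both control day-6 libraries. Il10 had 2.56, 1.61 and 1.75 FPKM in irradiated skin at day 9, against 1.08 and 2.04 FPKM at day 6.

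**Figure D3:**
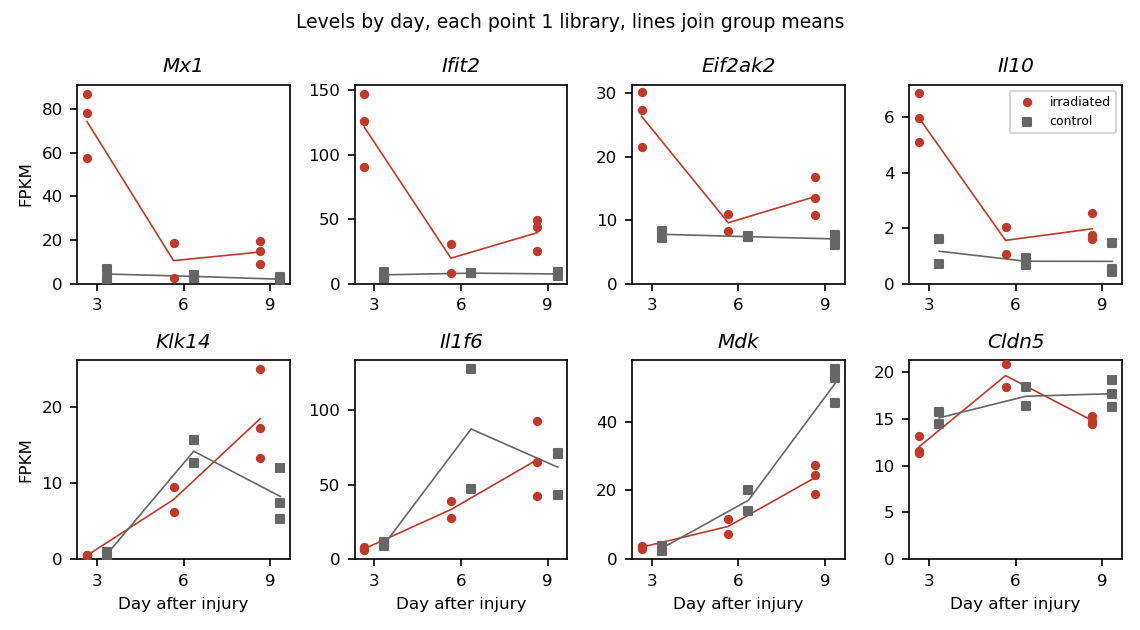
FPKM of 8 genes by day after injury (3, 6 and 9), each point 1 library, irradiated skin as circles to the left and control skin as squares to the right of each day, with lines through group means. Mx1, Ifit2, Eif2ak2 and Il10 are high at irradiated day 3 and lower at day 6, while Klk14 rises between day 3 and day 6 in irradiated and control skin alike.

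Among the 23 genes that rose were genes of the epidermis, vessels and histones. Klk14, a kallikrein protease of the upper epidermis that takes part in the shedding of dead cells, had the largest rise. It had 6.16 and 9.53 FPKM at day 6, against 0.536, 0.484 and 0.403 FPKM at day 3 (log2 difference 2.56, SE 0.30, limma adjusted p = 0.0103). Klk14 lies at chr7:43690418-43695536 on the plus strand of mm10. It passed in 16 of 19 alternative analyses, among them the fit without day-6 replicate 1, with adjusted p from 0.00522 to 0.210. Klk14 rose in control skin too, with 15.8 and 12.7 FPKM at day 6 and 0.911 and 0.451 FPKM at day 3 (log2 difference 3.19, limma adjusted p = 0.00503), and was 1 of 2 genes that passed there.

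Fetub, which codes for the protease inhibitor fetuin-B, had 12.2 and 41.4 FPKM at day 6, against 6.01, 3.28 and 3.30 FPKM at day 3 (log2 difference 2.22, SE 0.40, limma adjusted p = 0.0336). Here replicate 3 was the higher by far. Il1f6, also named Il36a, an epithelial cytokine that activates keratinocytes and dendritic cells, had 27.3 and 39.2 FPKM at day 6, against 8.16, 6.07 and 6.498 FPKM at day 3. It was the only one of 23 cytokine genes tested that rose, against 0.165% of all genes (log2 difference 2.10, SE 0.40, limma adjusted p = 0.0375). The related Il1f9 and Il1f8 did not pass, with log2 differences of 0.17 and 0.53. Mdk, the heparin-binding growth factor midkine, had 11.6 and 7.44 FPKM at day 6, against 3.02, 3.87 and 3.53 FPKM at day 3 (log2 difference 1.21, SE 0.24, limma adjusted p = 0.0478). It was the only one of 29 growth factor genes tested that passed (0.691% of all genes), it passed in 5 of 19 alternative analyses, and it was 1 of 2 genes that rose between day 3 and day 6 in control skin (log2 difference 2.12, limma adjusted p = 0.0241). Pdgfa, a mitogen for fibroblasts, had 12.4 and 8.96 FPKM at day 6, against 5.33, 5.99 and 6.63 FPKM at day 3, without passing (log2 difference 0.73, limma adjusted p = 0.0864).

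Vessel genes included 3 of 27 tested that rose and 0 that fell, against backgrounds of 0.165% and 0.525%. Cldn5, the tight junction protein of endothelium, had 18.4 and 20.8 FPKM at day 6, against 13.1, 11.5 and 11.4 FPKM at day 3 (log2 difference 0.67, SE 0.10, limma adjusted p = 0.0192). Sox17, a transcription factor of arterial endothelium, had 4.31 and 3.45 FPKM at day 6 and 2.28, 2.09 and 1.94 FPKM at day 3 (log2 difference 0.65, limma adjusted p = 0.0271). Egfl7, a protein secreted by endothelial cells, had 12.8 and 10.2 FPKM at day 6 and 7.63, 6.34 and 7.28 FPKM at day 3 (log2 difference 0.62, limma adjusted p = 0.0478). These 3 had day-6 libraries close together and no overlap with day 3, and they passed in 12 of 18 (Cldn5), 9 of 18 (Sox17) and 6 of 19 (Egfl7) alternative analyses. The median of the list was 0.36, with 0.59 in replicate 1 and 0.05 in replicate 3, and both day-6 libraries were above day 3 in 10 of 27 genes (12.9% of all genes). Junction gene Cdh5 had 62.1 and 31.6 FPKM at day 6, against 33.6, 22.2 and 33.7 FPKM at day 3, so replicate 1 alone was above. The number that rose was 1 with FPKM rescaled to nuclear genes, 0 without day-6 replicate 1, 7 without replicate 3, and 0, 0 and 1 without day-3 replicates 1, 2 and 3.

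Hist1h2bc, which codes for a histone of the H2B type, had 67.3 and 55.5 FPKM at day 6, against 26.8, 30.2 and 27.9 FPKM at day 3 (log2 difference 1.09, SE 0.13, limma adjusted p = 0.0103). It passed in 16 of 19 alternative analyses, with adjusted p from 0.00406 to 0.188, and its control difference was 0.13. In irradiated skin at day 9 it had 47.1, 42.2 and 44.2 FPKM, between the day-6 and day-3 libraries. Histone genes share sequence, so reads may be split between copies. Mup11 rose by 2.07 on the log2 scale (2.49 in replicate 1 and 1.65 in replicate 3) and has near-identical copies, so its value is uncertain. Ifi27 had 59.0 and 54.7 FPKM at day 6, against 29.7, 35.1 and 33.7 FPKM at day 3 (log2 difference 0.78, limma adjusted p = 0.0375). It is annotated as an interferon-inducible gene, was not on the list, and rose where the list members that passed fell.

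The change between the days was set against that in control wounds, which share no library with it. The interaction, the irradiated difference minus the control difference, passed in 0 of 13901 genes (0.0%) by limma, with 1269 at an unadjusted p under 0.05 (smallest adjusted p 0.243), and limma-voom on recovered fragments also called 0. It was below 0 in all 30 interferon-induced genes, 19 of which had an unadjusted p under 0.05. The median control difference of that list was 0.12, against -1.44 in irradiated skin. The interaction of Mx1 was -2.99 (limma adjusted p = 0.369), that of Ifit2 was -3.11 (0.309) and that of Trim21 was -1.36 (0.300, also a limma adjusted p). Without day-6 replicate 3, 62 genes had a higher and 21 a lower irradiated change, 7 of them among the 30. Without control day-6 replicate 2, 1 gene passed. Within control skin, 2 genes passed (0.0144%). Of the genes that fell in irradiated skin, 51 of 73 had a difference of the same sign in control skin, as had 12 of the 23 that rose. Over all genes tested the median control difference was -0.08, so negative values were common there. The share of same signs over all genes was not counted, so these counts do not show a change shared with control wounds.

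Most other lists had 0 members that passed, against 0.691% of all genes, and their day-6 libraries often lay on opposite sides of day 3. Over 27 chemokine genes, the median difference from day 3 was 0.75 in replicate 1 and -1.18 in replicate 3, and over 22 acute-phase and complement genes it was 1.02 and -0.41. Cxcl1, which attracts neutrophils, had 178 FPKM in replicate 1 and 5.52 FPKM in replicate 3, against 8.62, 8.70 and 12.2 FPKM at day 3. Saa3, an acute-phase apolipoprotein, had 3289 and 70.1 FPKM at day 6, against 269, 488 and 461 FPKM at day 3. Mmp3, a matrix protease, had 2196 and 85.2 FPKM at day 6, against 199, 246 and 303 FPKM at day 3. For these genes replicate 1 was above all day-3 libraries and replicate 3 below them. The opposite held in the epidermis: over 31 cornified envelope and barrier genes the median was -0.72 in replicate 1 and 0.53 in replicate 3, and over 15 basal and suprabasal keratinocyte markers it was -1.20 and 0.17. Wound-edge keratin Krt16 had 1134 and 4622 FPKM at day 6, against 3225, 2068 and 2940.0 FPKM at day 3. Lower in replicate 1 than in replicate 3 were also Thrsp, a regulator of lipid synthesis, with 2.82 and 39.7 FPKM, against 7.64, 20.8 and 4.68 FPKM at day 3, and Cyp2e1, with 13.6 and 114 FPKM, against 21.1, 95.4 and 28.5 FPKM at day 3. These lists had no consistent position of day 6 against day 3.

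**Figure D4:**
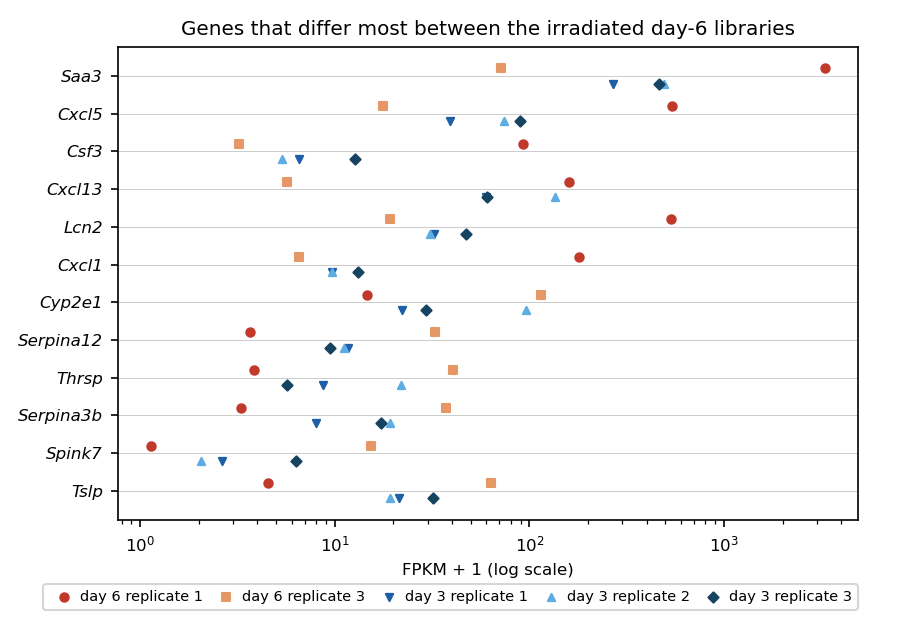
FPKM + 1 on a log axis of the 6 genes most higher and the 6 most lower in irradiated day-6 replicate 1 than in replicate 3, shown with the 3 irradiated day-3 libraries. Day-3 points lie between the day-6 points in most rows; Cxcl1 has 178 FPKM in replicate 1 and 5.52 FPKM in replicate 3.

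In a few lists without a passing member the day-6 libraries lay on the same side. All 12 mitochondrially encoded genes tested were above day 3 in both day-6 libraries (12.9% of all genes), with a median difference of 0.49, which was 0.19 with 3 genes negative under quantile normalization; mt-Co1, a subunit of cytochrome oxidase, had 15510.0 and 17372 FPKM at day 6, against 11768, 12362 and 11668 FPKM at day 3. Muscle regeneration genes had a median of 0.67 and 7 of 13 above in both (12.9% of all genes). Among them embryonic myosin Myh3 had 12.4 and 39.2 FPKM at day 6, against 2.82, 10.3 and 7.51 FPKM at day 3 (log2 difference 1.70, limma adjusted p = 0.512). Targets of p53, the transcription factor activated by DNA damage, were below day 3 in both day-6 libraries for 16 of 28 genes (19.4% of all genes), with a median of -0.29. Cdkn1a, the cell-cycle inhibitor p21, had 182 and 162 FPKM at day 6, against 204, 207 and 204 FPKM at day 3 (log2 difference -0.25, limma adjusted p = 0.648). Mdm2, the ligase that degrades p53, had 18.04 and 16.8 FPKM at day 6, against 21.5, 21.8 and 21.0 FPKM at day 3 (log2 difference -0.29, limma adjusted p = 0.509). In these p53 targets the groups did not overlap, yet the differences were small and did not pass. Mitosis genes were below in both day-6 libraries for 17 of 28 (19.4% of all genes), with a median of -0.21 in irradiated and -0.55 in control skin.

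The series title names TGF-beta1 signalling, in which the ligand binds TGFBR2 and TGFBR1 and SMAD2, SMAD3 and SMAD4 carry the signal to target genes. None of the 30 ligand, receptor and SMAD genes tested and none of 28 target genes passed, against 0.691% of all genes. At so low a share, these counts are not a result about the pathway. Tgfb1 had 28.3 FPKM in replicate 1 and 14.5 FPKM in replicate 3 at day 6, against 16.9, 19.3 and 20.2 FPKM at day 3 (log2 difference 0.11, SE 0.30, limma adjusted p = 0.910). The day-6 libraries thus lay above and below all day-3 libraries. Tgfbr2 had 41.6 and 27.4 FPKM at day 6, against 45.4, 52.9 and 44.9 FPKM at day 3 (log2 difference -0.48, limma adjusted p = 0.527). Smad3 had 7.28 and 6.43 FPKM at day 6, against 5.94, 7.15 and 6.36 FPKM at day 3 (log2 difference 0.07, limma adjusted p = 0.865). Col1a1, the main collagen of dermis and a target of the pathway, had 867 and 610 FPKM at day 6, against 658, 1059 and 638 FPKM at day 3 (log2 difference -0.07, SE 0.56, limma adjusted p = 0.974). The 32 collagen and matrix genes had a median of -0.01, with 0.22 in replicate 1 and -0.27 in replicate 3.

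**Figure D5:**
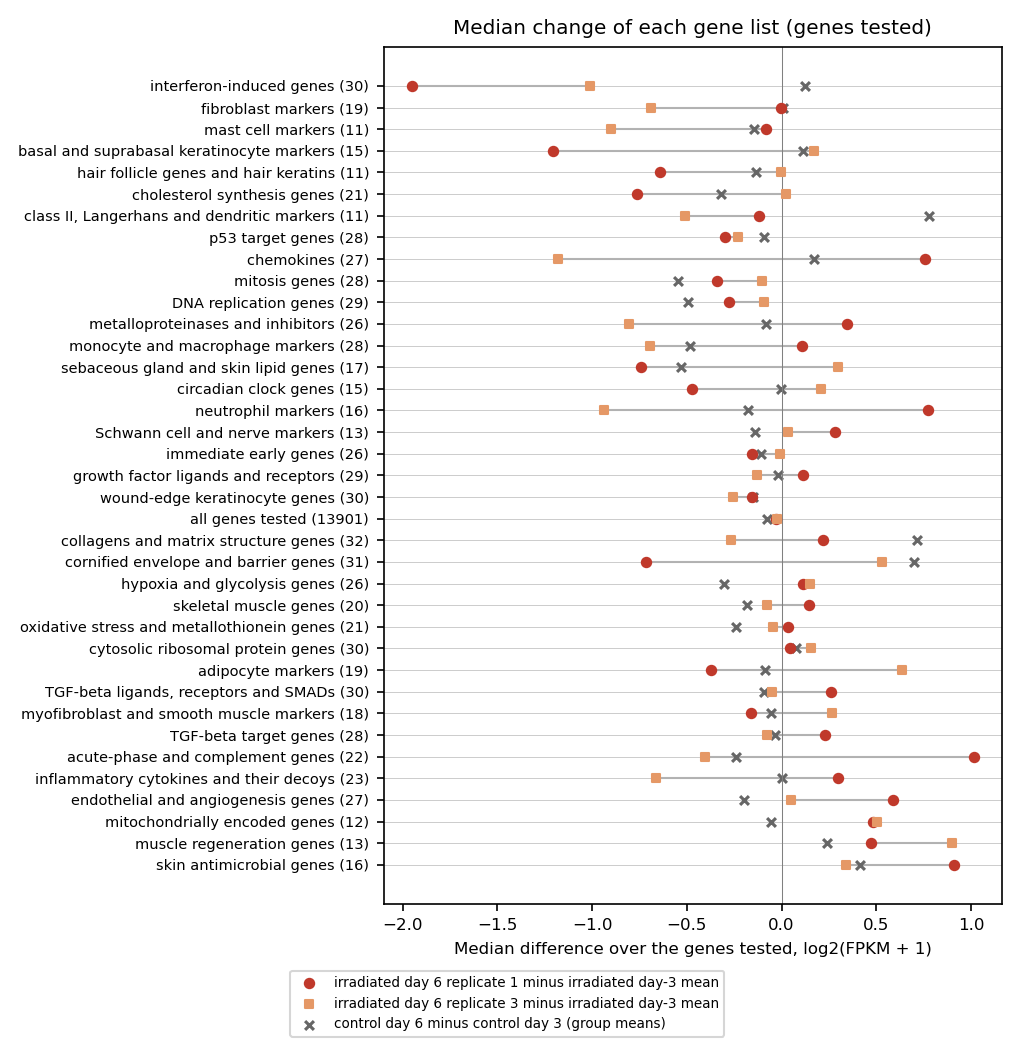
Median difference in log2(FPKM + 1) from day 3 of each gene list with at least 10 genes tested, for irradiated day-6 replicate 1 and replicate 3 (against the irradiated day-3 mean) and for control skin (day-6 mean minus day-3 mean), with the number of genes tested in brackets. Of the lists drawn, the interferon-induced list has the lowest point, -1.95 in replicate 1, with -1.01 in replicate 3 and 0.12 in control skin, while chemokines and cornified envelope genes have day-6 points on either side of 0.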

How the data were processed

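Total RNA of skin was made into Smart-Seq2 libraries and sequenced with paired ends, per the labels' protocols. Reads were aligned to mm10 with HISAT2 2.2.1, per the submitters' processing notes; how fragments were counted was not known for this work. The authors deposited 1 table of FPKM values, with 1 column per library and no pooled column. FPKM times GENCODE M21 gene length gave whole fragments within 0.01 for all values of 31476 of 34140 genes, which gives the library totals.

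The 13901 genes reaching 1 FPKM in 2 or more of the 5 libraries were kept. log2(FPKM + 1) was fitted with limma 3.58.1 (trend) in R 4.3.3, with a mean per group of the 17 libraries; a pseudocount of 1 understates changes of low genes. p-values were adjusted by Benjamini-Hochberg, threshold 0.05, and the fit was tested on simulated data. The genes and lists were chosen with earlier results of these data known. Named genes included those with the largest changes among passing protein-coding genes with a mean of at least 5 FPKM. Others were the passing or most abundant members of each list, or came from a fixed set of wound genes. Some had the lowest interaction p or the widest gap between the day-6 libraries. Rsad2, Isg15, Stat2, Irf9, Tnf, Pdgfa, Cdh5, Myh3, Cd207, Defb3, Il1f8 and Il1f9 were added outside these rules, with results of these data known. Eif2ak2, Tlr3, Daxx and Pml were added after their values were seen. Lists have counts and medians, with no set test; 1 list member is counted in them and not reported here. RefSeq windows were searched for the interferon response core GAAANNGAA and, for overlap with it, the CCAAT box, the cell cycle element TTTGAA, the TATA box TATAAA, the NF-kB motif GGANNTTCC and the AP-1 motif TGANTCA. Alternatives changed the pseudocount, filter, scaling, fit and libraries; limma-voom on recovered fragments was added after seeing the data. FPKM intervals for counting error were not computed.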

Additional observations from a re-analysis of the deposited data

How the results depend on the processing

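The 96 genes that passed numbered 29 with a pseudocount of 0.1, 189 with 5, 63 with no filter on low values, 149 with quantile normalization and 46 with a change of at least 1 also required. They numbered 0 with only the 5 libraries or only the irradiated libraries fitted (1793 and 2190 at an unadjusted p under 0.05), 2 with array quality weights and 54 with limma-voom on recovered fragments, an alternative chosen after seeing the data. The cause of these shifts was not tested. Leaving out 1 library gave 2 to 402, the lowest without irradiated day-6 replicate 1 and the highest without replicate 3. A stricter filter, a filter over 17 libraries, median-of-ratios scaling, rescaling to nuclear genes and robust estimation gave 73 to 115. With no filter, 26 rose and 37 fell. With the replicate number as a block, 38 passed, 33 of them among the 96; same-numbered libraries of days 6 and 3 had residual correlations of -0.27 and -0.10, and with 2 pairs the number was not taken to pair them. The interaction called 0 genes in all but 3 alternatives: 1 with no filter and, leaving out 1 library, 0 to 83. The block left it at 0. Over all named and passing genes, 2823 alternative values kept their side of the threshold, 913 no longer passed, 8 passed anew, and 0 that passed in either fit changed sign. The 5 libraries were of similar depth; genes near 1 FPKM rest on the fewest fragments, and the pseudocount and the filter bear on them most.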

Other observations

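Some cell type marker lists differed widely between the day-6 libraries, and the sums of others lay on one side of day 3 in both. Fibroblast markers summed to 1258 FPKM in irradiated day-6 replicate 1 and 576 FPKM in replicate 3, against 1022 to 1405 FPKM at day 3. Adipocyte markers summed to 1126 and 2712 FPKM at day 6, against 1023 to 1577 FPKM at day 3, and replicate 1 was below replicate 3 in 19 of 19 genes tested. Mast cell markers summed to 191 and 65.1 FPKM at day 6, against 175 to 259 FPKM at day 3. Their proteases Mcpt4, with 49.0 and 18.6 FPKM at day 6 and 50.9, 60.8 and 77.1 FPKM at day 3, and Cma1, with 44.9 and 17.2 FPKM at day 6 and 36.6, 51.1 and 57.9 FPKM at day 3, did not pass. Class II, Langerhans and dendritic markers summed to 278 and 243 FPKM at day 6, against 320 to 349 FPKM at day 3, and 6 of 11 genes were below in both day-6 libraries (19.4% of all genes). Myofibroblast and smooth muscle markers summed to 1156 and 1109 FPKM at day 6, against 858 to 1052 FPKM at day 3. Gene by gene they had no shared direction, with a median difference of -0.16 in replicate 1 and 0.26 in replicate 3. Only 3 of 18 were above day 3 in both day-6 libraries (12.9% of all genes). Melanocyte genes summed to 20.6 and 20.4 FPKM at day 6, against 24.8 to 33.7 FPKM at day 3. Langerhans cell lectin Cd207 had 1.14 and 2.18 FPKM at day 6, against 3.03, 2.49 and 3.43 FPKM at day 3 (limma adjusted p = 0.348). B and plasma cell markers were below 1 FPKM in all 5 libraries for 8 of 11 genes, and red blood cell markers for 7 of 9.

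Skin antimicrobial genes had a median difference of 0.69, with 5 of 16 above day 3 in both day-6 libraries (12.9% of all genes). Among them 0 passed (0.691% of all genes). S100a8, a calcium-binding alarmin of neutrophils and stressed keratinocytes, had 2707 and 1405 FPKM at day 6, against 607, 443 and 652 FPKM at day 3 (limma adjusted p = 0.534). The groups did not overlap, but in control skin at day 6 the same gene had 5144 and 591 FPKM, so its libraries varied widely there too. Defensin Defb3 had 93.9 and 4.197 FPKM at day 6, against 1.65, 1.24 and 4.97 FPKM at day 3.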
